A study of Rattus norvegicus with 65 samples.

Results

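The genes described here encode the receptors of the gut hormones GLP-1, GIP and GLP-2 (Glp1r, Gipr and Glp2r), the calcitonin receptor and the calcitonin receptor-like receptor (Calcr and Calcrl), and the receptor activity-modifying proteins that turn these last receptors into receptors for amylin, CGRP and adrenomedullin (Ramp1, Ramp2 and Ramp3). The members were chosen by gene symbol, and all 8 were found, each as 1 of the 38513 genes in the count table. All 8 were among the 21871 genes that passed the filter on low counts and were tested. Their RNA was measured in the hypothalamus of 65 male Wistar rats, with 1 library per animal. The animals were adult, 9 to 10 weeks old at the start, and all groups but the lean one are described as having received a high-fat diet for 6 weeks before their intervention. RYGB-treated animals (n = 14) underwent Roux-en-Y gastric bypass, and sham-treated animals (n = 11) a sham operation. BWM animals (n = 7) were body-weight-matched to the RYGB group by food restriction. The study's abstract lists this group as sham plus weight matching, whereas its methods mention the food restriction only. Liraglutide-treated animals (n = 5) received this GLP-1 receptor agonist at 0.4 mg/kg/day by injection and saline by minipump. PYY3-36-treated animals (n = 4) received PYY3-36 at 0.1 mg/kg/day by minipump and saline by injection, PYY3-36 + liraglutide-treated animals (n = 10) received both drugs, and saline-treated animals (n = 8) received saline by both routes. A further 6 animals were labelled lean, which the methods do not describe. The study's text mentions a group fed low-fat diet alone, but no label ties it to these animals. Of the groups with a described intervention, all but BWM could choose between high-fat and low-fat food. Animals were killed after 10 h of fasting, 4 weeks into their intervention. The experiments were run in 2 periods, batch A (37 libraries) and batch B (28 libraries). The tests between groups and the correlations took the batch into account unless stated otherwise. Ranges, medians and counts of animals of a group pool both batches unless a batch is named.

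GLP-1 is made by intestinal L cells and by neurons of the brainstem, and its receptor on hypothalamic neurons mediates part of the loss of appetite caused by GLP-1 receptor agonists. GIP and GLP-2 are gut hormones of the same peptide family, and their receptors, like all members that bind a hormone here, are class B1 G protein-coupled receptors that raise cAMP. Amylin, a pancreatic satiety hormone, acts on the calcitonin receptor in complex with a receptor activity-modifying protein, whereas the calcitonin receptor-like receptor binds CGRP together with RAMP1 and adrenomedullin together with RAMP2 or RAMP3. In the brain, Calcrl and Ramp2 are known from blood vessels, and Calcr from neurons of the hypothalamus and hindbrain.

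On the genome build of the deposited table (Rnor_6.0), Glp1r lies on chr20:9586075-9626228, Gipr on chr1:80063047-80073223, Glp2r on chr10:54260290-54323839, Calcr on chr4:28627439-28702559, Calcrl on chr3:71747938-71845487, Ramp1 on chr9:98313632-98364206, Ramp2 on chr10:89166170-89168962 and Ramp3 on chr14:86922223-86939722. The values are summed over the exons of each gene. The span of Calcr also holds Mir653 and Mir489, and that of Calcrl the pseudogene LOC108350411, all on the strand of the member, and a read on the exons of 2 such genes would have been split between them. RefSeq promoters of the build GRCr8 were found for 6 of the 8 members, not for Gipr and Ramp2. The 250 bases before the annotated start are shown for Glp1r, the receptor of liraglutide, and for Calcr and Calcrl, the pair that shares the RAMPs. Capitals mark GGGCGG or its reverse complement (the GC box), read on both strands, with overlapping matches joined.
Glp1r (chr20:8973143-8973392, + strand): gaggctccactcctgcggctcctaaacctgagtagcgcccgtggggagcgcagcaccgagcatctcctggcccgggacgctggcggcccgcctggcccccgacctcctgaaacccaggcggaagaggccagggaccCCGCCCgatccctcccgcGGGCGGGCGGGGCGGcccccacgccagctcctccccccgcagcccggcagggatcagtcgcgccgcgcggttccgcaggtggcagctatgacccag
Calcr (chr4:32691076-32691325, - strand): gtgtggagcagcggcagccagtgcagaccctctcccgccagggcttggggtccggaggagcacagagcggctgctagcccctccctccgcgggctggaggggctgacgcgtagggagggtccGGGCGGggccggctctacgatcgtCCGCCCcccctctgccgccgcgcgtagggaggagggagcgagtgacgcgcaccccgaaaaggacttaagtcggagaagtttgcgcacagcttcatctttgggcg
Calcrl (chr3:89932617-89932866, - strand): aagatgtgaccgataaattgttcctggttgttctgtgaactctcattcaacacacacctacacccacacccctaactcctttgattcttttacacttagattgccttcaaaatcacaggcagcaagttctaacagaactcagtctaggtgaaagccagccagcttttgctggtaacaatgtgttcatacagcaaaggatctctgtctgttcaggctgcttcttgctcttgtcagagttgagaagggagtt
The Glp1r and Calcr windows were rich in G and C, with 75.6% and 70.0% and with 27 and 25 CpG dinucleotides. The Calcrl window had 43.6% and 1 CpG, and the median of 33469 rat promoter windows of this length was 51.2% and 5. The GC box was found 4 times in Glp1r, 2 times in Calcr, 3 times in Ramp1 and 2 times in Ramp3, in 0 places of Calcrl and Glp2r, and in 30.5% of all windows. The letters TATAAA (12.9% of all windows) and TGACGTCA, the full cAMP response element (1.59%), were in none of the 6 windows on either strand.

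Libraries held between 20041010 and 36539941 counts on genes, with a median of 29571658 in batch A and 23386048 in batch B. Levels are given in CPM, the counts of a gene relative to all counts of its library, scaled between libraries by TMM. A list of 16 genes typical of the hypothalamus, among them Otp and Sim1, had a summed level between 447 and 8271 CPM in 53 libraries and between 32.98 and 281 CPM in the other 12. In 9 of these 12 libraries Otp had fewer than 10 counts, against 0 of the 53. Sim1 did not fully separate them, with 0 (sham replicate 2) to 587 counts (lean replicate 5) in the 12. In the 53 it had 20 (sham replicate 1) to 563 counts (RYGB replicate 2). The 12 libraries were 3 of 11 sham-treated, 2 of 8 saline-treated, 2 of 5 liraglutide-treated, 2 of 6 lean, 1 of 7 BWM, 1 of 4 PYY3-36-treated and 1 of 10 PYY3-36 + liraglutide-treated animals, and 0 of 14 RYGB-treated animals. Several libraries also had high sums for genes of neighbouring regions. The 6 striatal markers reached 4072 CPM in BWM replicate 1, 3683 CPM in sham replicate 10 and 3256 CPM in sham replicate 6, with a median of 267 CPM over all libraries. The 8 markers of habenula and thalamus reached 927 CPM in sham replicate 1 and 822 CPM in saline replicate 7, with a median of 96.6 CPM. The 9 markers of the anterior pituitary reached 76838 CPM in BWM replicate 5 (median 11.1 CPM), and the 8 of the choroid plexus 3626 CPM in RYGB replicate 6 (median 60.6 CPM). In RNA of a whole tissue piece, fewer cells of a type and less RNA per cell cannot be told apart.

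Members differed widely in abundance. Per kilobase of exon, Ramp2 and Calcr were highest, with medians over 65 libraries of 21.7 and 21.6 CPM per kb, followed by Ramp1 (10.98), Ramp3 (7.33), Calcrl (3.21), Gipr (2.04), Glp1r (0.849) and Glp2r (0.0502). Ramp2 was above Calcr in 39 of 65 libraries, so this pair had no fixed order. Calcr was above Ramp1 in 45 libraries, and Ramp1 above Ramp3 in 48. The lower steps were more regular, with Ramp3 above Calcrl in 64 libraries, Calcrl above Gipr in 53, Gipr above Glp1r in 56 and Glp1r above Glp2r in 64.

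**Figure D1:**
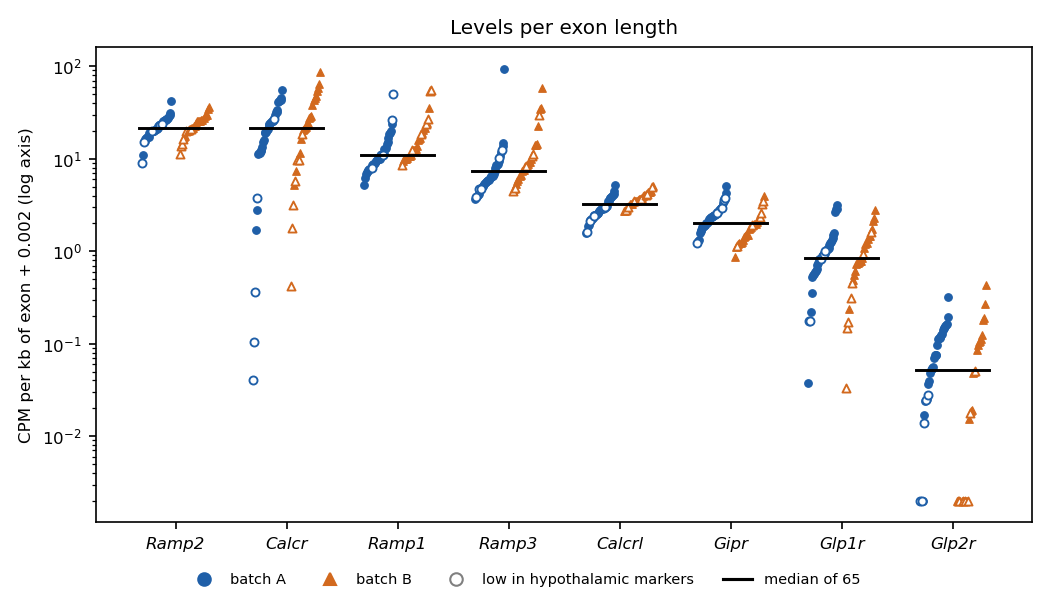
Levels of the 8 genes in CPM per kilobase of exon (log axis, with 0.002 added so that libraries at 0 can be drawn), with 1 point per library, circles for batch A, triangles for batch B and open symbols for the 12 libraries low in hypothalamic markers. Genes are ordered by their median, from Ramp2 (21.7) to Glp2r (0.0502), and Calcr shows the longest tail of low values, most of them open symbols.

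Calcr had the largest ratio of the highest to the lowest library. Its lowest library had 0.135 CPM (lean replicate 2) and its highest 309 CPM (sham replicate 7), a ratio of 2297. The ratio was 103 for Glp1r, 25.8 for Ramp3, 10.5 for Ramp1, 6.01 for Gipr, 4.66 for Ramp2 and 3.37 for Calcrl. When libraries were divided into the 12 combinations of group and batch, between 58.0% (Glp2r) and 95.1% (Ramp2) of the spread of a member on the log2 scale lay between libraries of the same combination. Ordered by their medians, neighbouring combinations overlapped in 11 of 11 cases for every member, which such an ordering makes likely. Of all 66 pairs of combinations, 6 did not overlap for Glp2r, 5 each for Glp1r and Calcrl, and 4 for Gipr. The count was 2 for Ramp1, 1 for Calcr and 0 for Ramp2 and Ramp3. Most of these pairs held RYGB of batch B or saline of batch A, with 3 animals each, and such counts were not made for all genes.

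**Figure D2:**
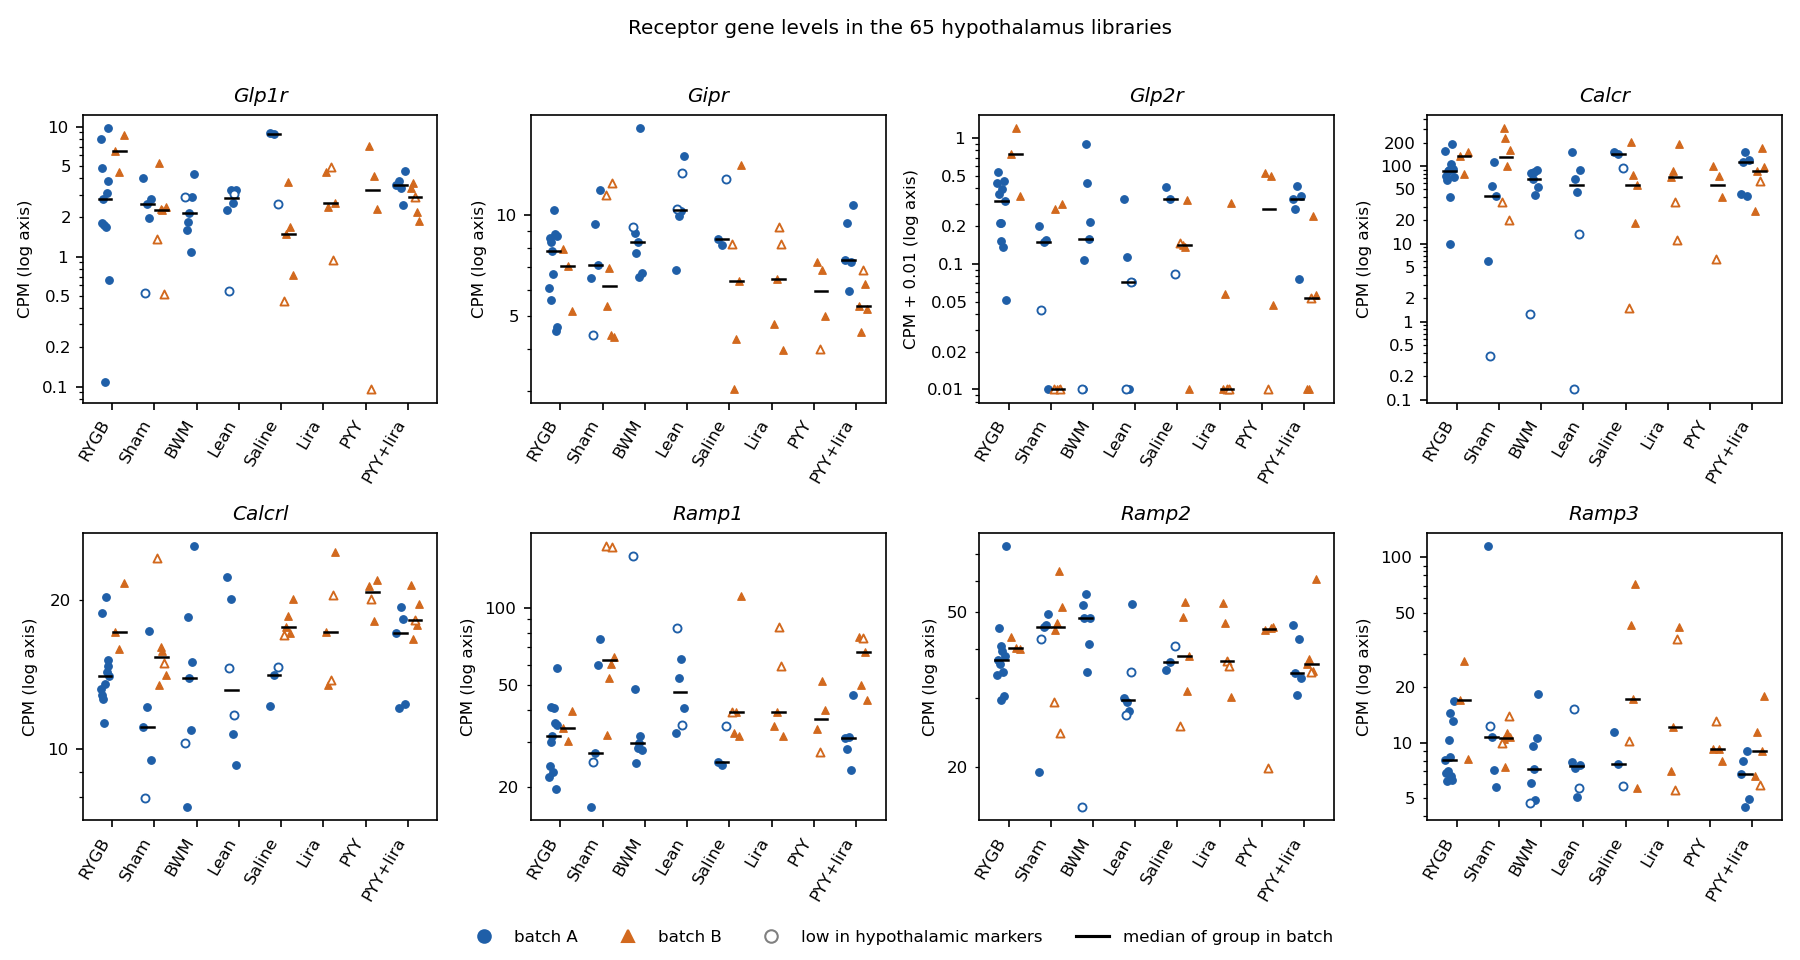
Levels of each gene in CPM (log axis, with 0.01 added for Glp2r) in the 8 groups, with 1 point per library, circles for batch A, triangles for batch B, open symbols for the 12 libraries low in hypothalamic markers and bars for the median of a group in its batch. Lira, PYY and PYY+lira stand for liraglutide, PYY3-36 and both, and Glp2r is above its highest sham-treated animal in 9 of 14 RYGB-treated animals.

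Between groups, 0 of the 8 members passed the test in any of the 8 comparisons. The test was edgeR's quasi-likelihood test with a batch term, and a call of regulation needed an absolute log2 fold change over 1 beside an adjusted p (Benjamini-Hochberg) below 0.05. Of all genes tested, this rule called 2.37% in RYGB- vs. sham-treated animals, 0.274% in BWM vs. sham-treated animals, 0.274% in RYGB-treated vs. BWM animals, 0.00914% in sham- vs. saline-treated animals and 0.00457% in PYY3-36 + liraglutide- vs. saline-treated animals. It called 0% for lean vs. sham-treated animals and for liraglutide or PYY3-36 vs. saline. With adjusted p alone the count of members was 0 as well, where 13% of all genes passed in RYGB- vs. sham-treated animals, 0.32% in BWM vs. sham, 0.343% in RYGB vs. BWM and 0.0137% in sham vs. saline. At an unadjusted p under 0.05 the count was 3 of 8 members in RYGB vs. sham (30% of all genes). It was 1 of 8 in BWM vs. sham (12.3%), RYGB vs. BWM (12.6%), lean vs. sham (12.2%), PYY3-36 + liraglutide vs. saline (2.53%) and sham vs. saline (12.9%). For liraglutide (2.08%) and PYY3-36 (7.54%) vs. saline it was 0 of 8. DESeq2 called 0 members in the 8 comparisons, but gave no adjusted p for Glp2r in RYGB vs. sham and in lean vs. sham, so that its count covers 7 members there.

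**Figure D3:**
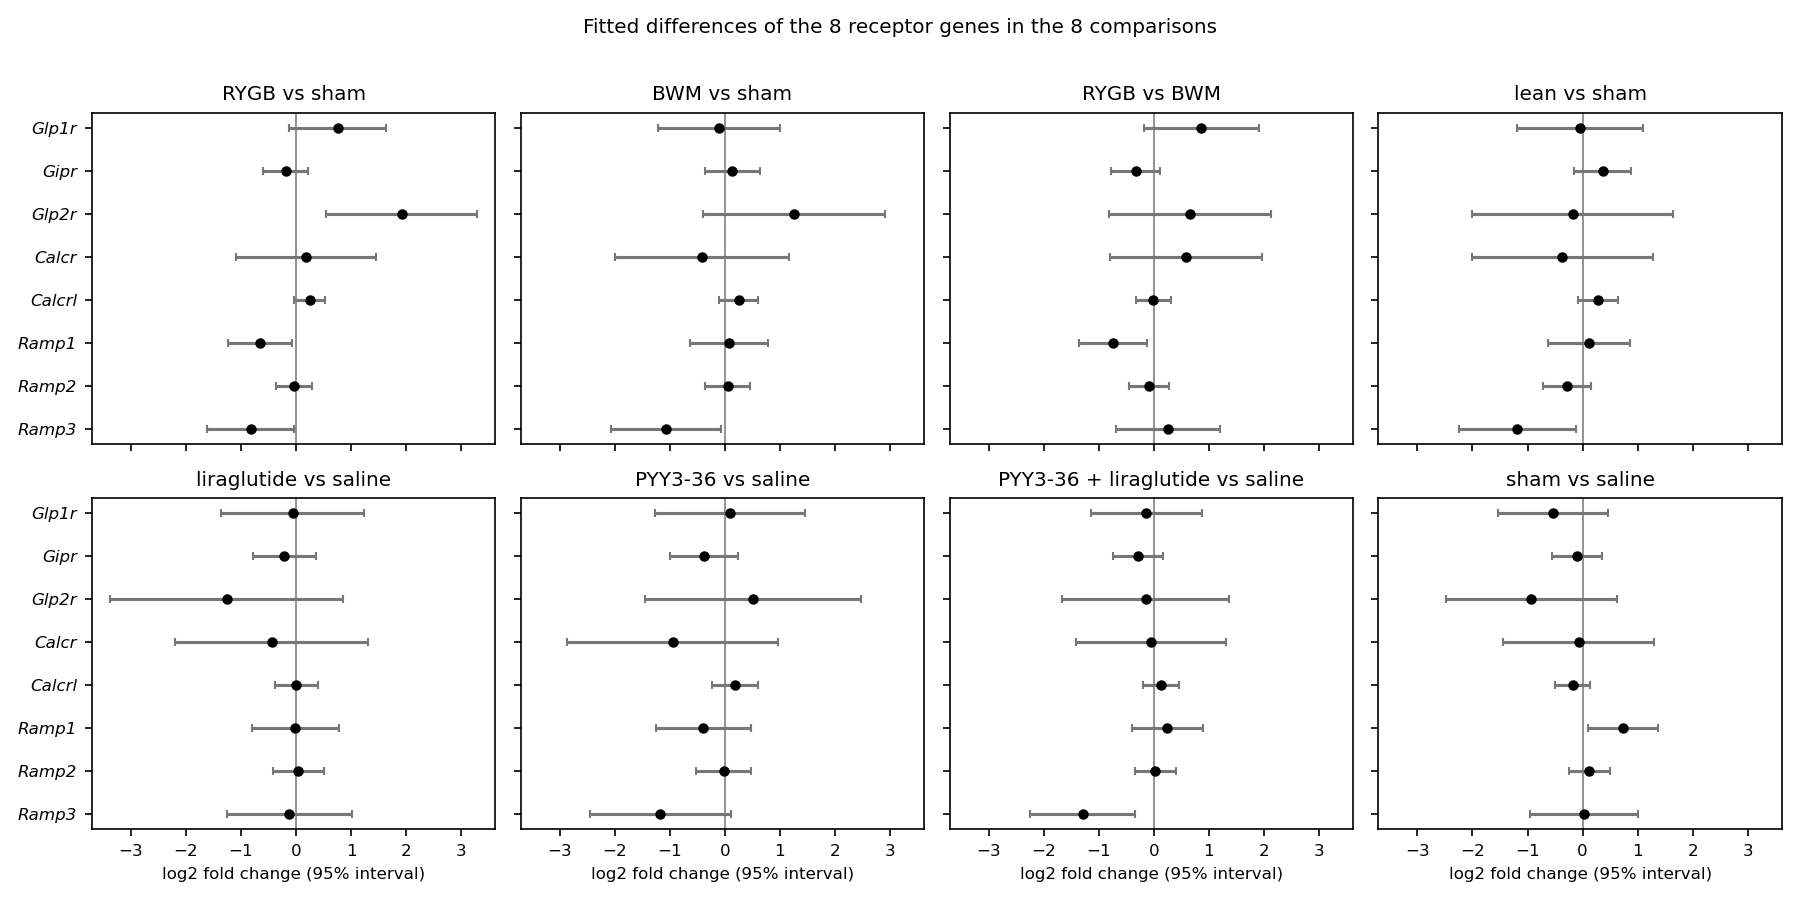
Log2 fold change (x axis) of each of the 8 genes with its 95% interval (bars) from the edgeR fit over 65 libraries, 1 panel per comparison. Calcrl and Ramp2 have the narrowest intervals and Glp2r and Calcr the widest, and none of the values passed the adjusted threshold.

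Glp1r, the receptor at which liraglutide acts, was low in every group. Liraglutide-treated animals had 4.50, 2.40, 4.90, 0.939 and 2.60 CPM, and PYY3-36-treated animals 7.07, 0.0949, 4.14 and 2.30 CPM. In the combined treatment the lowest, median and highest values were 1.88, 3.34 and 4.54 CPM, and in saline-treated animals 0.452, 2.11 and 8.85 CPM. The groups overlapped. The 2 saline-treated animals above every liraglutide-treated animal, at 8.85 and 8.77 CPM, were in batch A, whereas all liraglutide-treated animals were in batch B, where saline ran from 0.452 over a median of 1.49 to 3.73 CPM. The log2 fold change vs. saline was -0.06 for liraglutide (SE 0.65, 95% interval -1.36 to 1.24), 0.09 for PYY3-36 (SE 0.68, -1.28 to 1.46) and -0.13 for both (SE 0.50, -1.14 to 0.88), with adjusted p = 1, 0.975 and 1 by edgeR. On the linear scale the interval for liraglutide ran from 0.391-fold to 2.36-fold. The direction for liraglutide turned in batch B alone, with a log2 fold change of 0.93 (adjusted p = 0.983), and with the replicate number as a block, with 0.50 (adjusted p = 1).

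In RYGB-treated animals Glp1r ran from 0.108 over a median of 3.46 to 9.76 CPM, in sham-treated animals from 0.518 over 2.33 to 5.26 CPM, in BWM animals from 1.08 over 2.18 to 4.29 CPM, and in lean animals from 0.539 over 2.81 to 3.27 CPM. The RYGB group held 4 of 14 animals above the highest and 1 below the lowest sham-treated animal. That lowest animal, RYGB replicate 6, had the highest sums of all libraries for choroid plexus markers (3626 CPM) and for cortical markers (599 CPM). Without it the log2 fold change of Glp1r vs. sham was 0.86. With all RYGB-treated animals it was 0.76 vs. sham (SE 0.44, 95% interval -0.12 to 1.64, adjusted p = 0.24 by edgeR). It was 0.86 vs. BWM (SE 0.52, -0.18 to 1.91, adjusted p = 0.474). BWM and lean animals differed from sham-treated animals by -0.10 (SE 0.55) and -0.05 (SE 0.57). The third saline-treated animal of batch A had 2.54 CPM of Glp1r. The difference between sham and saline moved by 2.05 between the batches (SE 0.95, unadjusted p = 0.0356, adjusted p = 0.414 by edgeR).

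Gipr, the GIP receptor, was present in all libraries, from 3.03 to 18.2 CPM. Its group medians lay between 5.95 CPM (PYY3-36, batch B only) and 10.3 CPM (lean, batch A only). Lean animals had 6.87, 10.3 and 15.0 CPM as lowest, median and highest values, and sham-treated animals 4.32, 6.98 and 12.5 CPM. The groups overlapped, with a log2 fold change of 0.37 (SE 0.26, 95% interval -0.15 to 0.88, adjusted p = 0.575 by edgeR). The 3 hormone treatments had log2 fold changes of -0.21 (liraglutide), -0.38 (PYY3-36) and -0.28 (both) vs. saline, with SEs of 0.28, 0.31 and 0.23. RYGB differed from sham by -0.19 (SE 0.20).

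Glp2r, the receptor of the intestinotrophic hormone GLP-2, was at the limit of detection, with 0 counts in 16 of 65 libraries and at most 32. A count of 0 allowed a level of up to 0.0901 to 0.150 CPM in these libraries, for counting error only. It had the smallest adjusted p of the members in RYGB- vs. sham-treated animals. RYGB-treated animals had 0.0414, 0.346 and 1.2 CPM as lowest, median and highest values (mean 0.390 ± 0.296 SD, n = 14), and none was at 0. Sham-treated animals had 0, 0.0330 and 0.288 CPM (mean 0.0964 ± 0.113 SD, n = 11), with 5 of 11 at 0. Of these 5, 4 were in batch B, whereas 11 of the 14 RYGB-treated animals were in batch A. The libraries had a median of 22967576 counts on genes in sham- and 28767612 in RYGB-treated animals. The part of depth in the zeros was not tested. The sham median of Glp2r was exceeded in all 14 RYGB-treated animals, and 9 lay above the highest sham-treated animal, yet the groups overlapped. The log2 fold change was 1.92 (SE 0.68, 95% interval 0.55 to 3.29, unadjusted p = 0.00678, adjusted p = 0.0511 by edgeR).

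This value lay next to the threshold, and the call changed with the libraries in the fit. With only the RYGB and sham groups in the model the adjusted p was 0.0192 (log2 fold change 2.07), and it was under 0.05 in 6 of the 25 fits that left out 1 library, among them those without sham replicate 1 (0.0403) and without RYGB replicate 11 (0.0268). Without the 12 libraries low in hypothalamic markers, 3 of which were sham-treated and 0 RYGB-treated, the log2 fold change was 1.57 with an adjusted p of 0.153. Without RYGB replicate 13, the library with 32 counts, it was 1.58 with an adjusted p of 0.135. With saline as the control in place of sham it was 0.99 (adjusted p = 1.0), and with the replicate number as a block 1.45 (adjusted p = 0.33). DESeq2 gave 1.99 and no adjusted p for Glp2r. BWM animals had 0, 0.148 and 0.883 CPM, with a log2 fold change of 1.26 vs. sham (SE 0.82, adjusted p = 0.554), and RYGB differed from BWM by 0.66 (SE 0.74, adjusted p = 0.73). Liraglutide-treated animals had 0 counts in 3 of 5 libraries.

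Calcr, the core of the amylin receptors, had the widest range from lowest to highest library of the members without a library at 0. RYGB-treated animals had 9.94, 86.8 and 193 CPM as lowest, median and highest values, sham-treated animals 0.363, 56.2 and 309 CPM, BWM animals 1.26, 68.7 and 89.7 CPM and lean animals 0.135, 57.5 and 152 CPM. Saline-treated animals ran from 1.49 over 84.9 to 206 CPM, and animals with both hormones from 26.1 over 91.1 to 169 CPM. Liraglutide-treated animals had 72.9, 86.6, 34.6, 11.2 and 189 CPM, and PYY3-36-treated animals 102, 6.31, 74.2 and 40.6 CPM. Every group overlapped with its control. The log2 fold changes lay between -0.95 (PYY3-36 vs. saline, SE 0.96) and 0.59 (RYGB vs. BWM, SE 0.69), and that of RYGB vs. sham was 0.18 (SE 0.63, 95% interval -1.09 to 1.45, adjusted p = 0.88 by edgeR). The median was 12.2 CPM in the 12 libraries low in hypothalamic markers and 85.5 CPM in the other 53, and PYY3-36 replicate 2, liraglutide replicate 4, lean replicate 2, sham replicate 2, saline replicate 4 and BWM replicate 1, each the lowest Calcr library of its group, were among the 12. The part of tissue composition in the Calcr values of the groups was not tested.

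Calcrl, the CGRP and adrenomedullin receptor, had the lowest coefficient of variation of the members, 25.7% over 65 libraries, next to 26.3% for Ramp2. Its group medians lay between 13.1 CPM (lean) and 20.7 CPM (PYY3-36). Lean animals were in batch A only and PYY3-36-treated animals in batch B only. Over all groups, Calcrl was higher in batch B by a log2 fold change of 0.37 (SE 0.11, adjusted p = 0.00592 by edgeR). RYGB-treated animals had 11.3, 14.5 and 21.6 CPM as lowest, median and highest values, and sham-treated animals 7.96, 14.1 and 24.3 CPM. The log2 fold changes in the 8 comparisons lay between -0.18 (sham vs. saline, SE 0.16) and 0.27 (lean vs. sham, SE 0.18). The 95% interval for RYGB vs. sham was -0.04 to 0.53, and that for liraglutide vs. saline was -0.39 to 0.40, or 0.764-fold to 1.32-fold.

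Ramp1, which forms the CGRP receptor with Calcrl and an amylin receptor with Calcr, was lower in RYGB- than in sham-treated animals without passing the adjusted test. RYGB-treated animals had 19.6, 32.8 and 58.3 CPM as lowest, median and highest values (mean 33.1 ± 10.1 SD, n = 14), and sham-treated animals 16.6, 59.9 and 175 CPM (mean 69.1 ± 54.9 SD, n = 11). The sham median was not reached by any of the 14 RYGB-treated animals, and 6 of 11 sham-treated animals lay above every RYGB-treated animal. These counts pool the batches, which were mixed unequally. Batch A held 11 RYGB- and 5 sham-treated animals, with medians of 31.5 and 27.1 CPM. In batch B, 3 RYGB- and 6 sham-treated animals had medians of 34.1 and 62.3 CPM. The log2 fold change was -0.66 (SE 0.29, 95% interval -1.24 to -0.08, unadjusted p = 0.0263, adjusted p = 0.113 by edgeR). It was -0.30 in batch A alone (adjusted p = 0.642) and -1.40 in batch B alone (adjusted p = 0.061), and with saline as the control in place of sham it turned to 0.0704. Without the batch term it was -1.06 with an adjusted p of 0.00753, and without RYGB replicate 11 it was -0.76 with an adjusted p of 0.0471. The striatal marker sum ran from 144 to 465 CPM in RYGB-treated and from 112 to 3683 CPM in sham-treated animals, and 0 of the 6 markers had a library at 0 counts. Without the 12 libraries low in hypothalamic markers, which included the sham-treated animals with 175 and 172 CPM of Ramp1, the log2 fold change was -0.39 with an adjusted p of 0.288. The part of these libraries in the difference was not tested further.

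In BWM animals Ramp1 ran from 24.7 over 29.7 to 160 CPM, and the highest value, that of BWM replicate 1, stood far above the next one of 48.0 CPM. RYGB differed from BWM by -0.74 (SE 0.31, unadjusted p = 0.0191, adjusted p = 0.333), and by -0.08 without BWM replicate 1, the library with 4072 CPM of striatal markers. Sham- were higher than saline-treated animals by 0.73 (SE 0.32, unadjusted p = 0.0255, adjusted p = 0.341), and by 0.29 (adjusted p = 0.805) without the 12 libraries. Saline-treated animals had 24.3, 33.5 and 112 CPM. In animals with both hormones Ramp1 ran from 23.2 over 44.7 to 77.2 CPM, with a log2 fold change of 0.25 vs. saline (SE 0.32), and liraglutide and PYY3-36 differed from saline by -0.01 (SE 0.39) and -0.39 (SE 0.43).

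Ramp2, which forms an adrenomedullin receptor with Calcrl, was not past an unadjusted p of 0.05 in any of the 8 comparisons. RYGB-treated animals had 29.7, 39.0 and 73.6 CPM as lowest, median and highest values, and sham-treated animals 19.4, 45.7 and 63.6 CPM. The log2 fold change was -0.03 (SE 0.17, 95% interval -0.36 to 0.30, adjusted p = 0.912 by edgeR). In the other 7 comparisons the values lay between -0.28 (lean vs. sham, SE 0.21) and 0.13 (sham vs. saline, SE 0.18).

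Ramp3, which forms an amylin receptor with Calcr and an adrenomedullin receptor with Calcrl, was lower than its control at an unadjusted p under 0.05 in 4 comparisons. Sham-treated animals had 5.74, 10.7 and 115 CPM as lowest, median and highest values, with 13.8 CPM as the second highest. RYGB-treated animals had 6.20, 8.27 and 27.4 CPM, BWM animals 4.70, 7.19 and 18.3 CPM and lean animals 5.09, 7.45 and 15.2 CPM. Only sham replicate 1, at 115 CPM, lay above all of these animals. The log2 fold changes vs. sham were -0.82 for RYGB (SE 0.39, unadjusted p = 0.042, adjusted p = 0.149), -1.07 for BWM (SE 0.50, 0.036 and 0.36) and -1.18 for lean animals (SE 0.53, 0.0298 and 0.366). All 3 share the sham-treated animals, and without sham replicate 1 they were 0.41, 0.27 and 0.17, with adjusted p-values of 0.383, 0.787 and 0.883 by edgeR. That library had the highest sum of habenular and thalamic markers, 927 CPM, whereas the 14 RYGB-treated animals ran from 75.3 to 244 CPM. Of the 8 markers, Gpr151, Pou4f1 and Chrnb4 had 0 counts in 26, 23 and 5 of the 65 libraries.

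PYY3-36 + liraglutide-treated animals had 4.47, 7.35 and 17.8 CPM of Ramp3, and saline-treated animals 5.72, 10.8 and 71.6 CPM. The saline-treated animals of batch A had 11.4, 7.69 and 5.81 CPM, and those of batch B 10.2, 43.2, 17.3, 71.6 and 5.72 CPM. Saline replicates 7 and 5, at 71.6 and 43.2 CPM, lay above every animal with both hormones, and their thalamic marker sums were 822 and 420 CPM, against 81.8 to 128 CPM in animals with both hormones. The log2 fold change was -1.29 (SE 0.48, 95% interval -2.25 to -0.34, unadjusted p = 0.00893, adjusted p = 1 by edgeR), and -0.76 without saline replicate 7. Liraglutide-treated animals had 6.98, 12.1, 5.54, 36.1 and 42.1 CPM and differed from saline by -0.12 (SE 0.57), and PYY3-36-treated animals had 9.21, 13.1, 9.27 and 7.99 CPM and differed by -1.18 (SE 0.64, adjusted p = 0.652). The part of thalamic tissue in these values was not tested.

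The batches did not show the same Ramp3 values. The log2 fold change of RYGB vs. sham was -1.67 in batch A alone (11 against 5 animals, adjusted p = 0.0389) and 0.74 in batch B alone (3 against 6 animals, adjusted p = 0.477), and the difference between them was 2.42 (SE 0.76, unadjusted p = 0.00225, adjusted p = 0.182 by edgeR). For sham vs. saline the batches differed by -3.35 (SE 0.88, unadjusted p = 0.000366, adjusted p = 0.167), with 0.0045% of 22207 genes passing in edgeR, and DESeq2 gave -3.33 with an adjusted p of 0.0213. At an unadjusted p under 0.05, 1 of 8 members (10.4% of all genes) differed between batches in RYGB vs. sham, 2 (11%) in sham vs. saline and 0 (3.31%) in PYY3-36 + liraglutide vs. saline. Without sham replicate 1 the Ramp3 differences for RYGB vs. sham and sham vs. saline were 0.64 and -1.59. Over all groups, batch B was higher than batch A for Ramp1 by 0.81 (SE 0.23, adjusted p = 0.00332) and for Calcrl by 0.37 (SE 0.11, adjusted p = 0.00592), so 2 of 8 members passed an adjusted p under 0.05 where 40.7% of all genes did. BWM and lean animals were in batch A only, and liraglutide and PYY3-36 alone were in batch B only. A test for any difference among the 8 groups gave adjusted p-values of 0.141 for Ramp1, 0.154 for Ramp3 and 0.239 for Glp2r, and 0 of 8 members passed where 3.76% of all genes did (2 of 8 at an unadjusted p under 0.05, where 21.5% did).

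Of 46 other genes of these pathways, 41 passed the filter on low counts, and 0 passed an adjusted p under 0.05 in any of the 8 comparisons. Of 7 ligand genes, Gcg (the precursor of GLP-1), Gip, Iapp (amylin) and Adm2 were below the filter, which left Adm (adrenomedullin) and the CGRP genes Calca and Calcb. The smallest adjusted p of these genes was that of Calcb in RYGB-treated vs. BWM animals, with a log2 fold change of -1.61 (SE 0.41, adjusted p = 0.0608), followed by Adm in RYGB- vs. sham-treated animals, with 0.93 (SE 0.35, adjusted p = 0.0659), and both were chosen for mention after their values were seen. The medians in RYGB vs. sham were 0.17 over 6 genes of peptide processing, 0.04 over 17 genes of G proteins, adenylyl cyclases and cAMP effectors, 0.09 over 6 genes of receptor desensitization and -0.12 over 9 other class B1 receptors, and the median over all genes was -0.02. At an unadjusted p under 0.05, 9 of the 41 genes passed in RYGB vs. sham (30% of all genes), 6 in BWM vs. sham (12.3%), 6 in RYGB vs. BWM (12.6%), 3 in lean vs. sham (12.2%), 0 for liraglutide (2.08%), 2 for PYY3-36 (7.54%) and 1 for both (2.53%) vs. saline, and 1 in sham vs. saline (12.9%).

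Within group and batch, members followed the markers of different brain regions. Values were the log2 of CPM + 1 minus the mean of the group in its batch, over 65 libraries, each relation is a description across libraries that share their dissection, and no test was made. Ramp1 went with the 6 striatal markers, with r = 0.85 and rho = 0.80 (0.83 in batch A and 0.88 in batch B), and r = 0.73 without the 12 libraries low in hypothalamic markers. Ramp3 went with the 8 markers of habenula and thalamus, with r = 0.82 and rho = 0.61 (0.76 in batch A and 0.89 in batch B), 0.72 without the 2 libraries farthest from the median and 0.82 without the 12 libraries. Calcr went with the 16 hypothalamic markers, with r = 0.78 and rho = 0.63 (0.83 and 0.75), but with r = 0.21 without the 12 libraries. These 12 were chosen by that same sum, so leaving them out narrows its range, which can lower r by itself for any member. Ramp2 had r = 0.69 with the same list (0.56 and 0.84), and 0.76 without the 12 libraries. Glp1r had r = 0.41 with it, and -0.03 without the 12 libraries, and its relation farthest from 0 was with 6 cortical markers (r = -0.57, and -0.50 without the 12 libraries). Calcrl had r = 0.44 with 6 microglial markers (0.42 and 0.51), 0.40 with 6 astrocyte markers (0.50 and 0.06) and 0.39 with 10 endothelial markers (0.40 and 0.34). Ramp2 had r = 0.31 with the endothelial markers (0.46 in batch A and 0.00 in batch B). Its relations with the astrocyte markers (r = 0.57, with 0.58 and 0.59) and with 6 tanycyte markers (r = -0.54, with -0.50 and -0.59) were farther from 0.

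**Figure D4:**
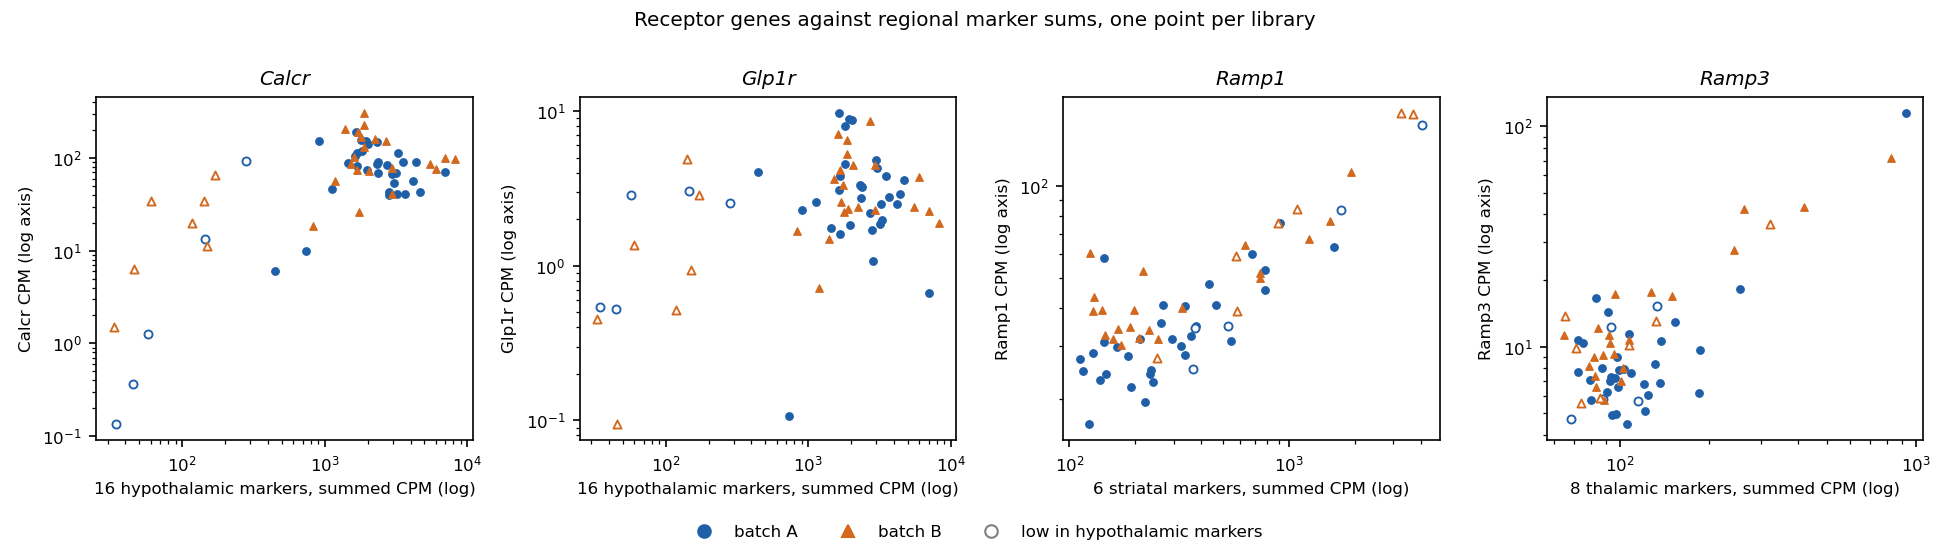
Level of Calcr, Glp1r, Ramp1 and Ramp3 (y axes, CPM on a log scale) against the summed level of the marker list named under each panel (x axes, CPM on a log scale), with 1 point per library, circles for batch A, triangles for batch B and open symbols for the 12 libraries low in hypothalamic markers. Calcr falls to 0.135 CPM among the libraries with the lowest hypothalamic sums, Ramp1 reaches 175 CPM among the libraries with the highest striatal sums, and Ramp3 reaches 115 CPM at the highest thalamic sum.

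**Figure D5:**
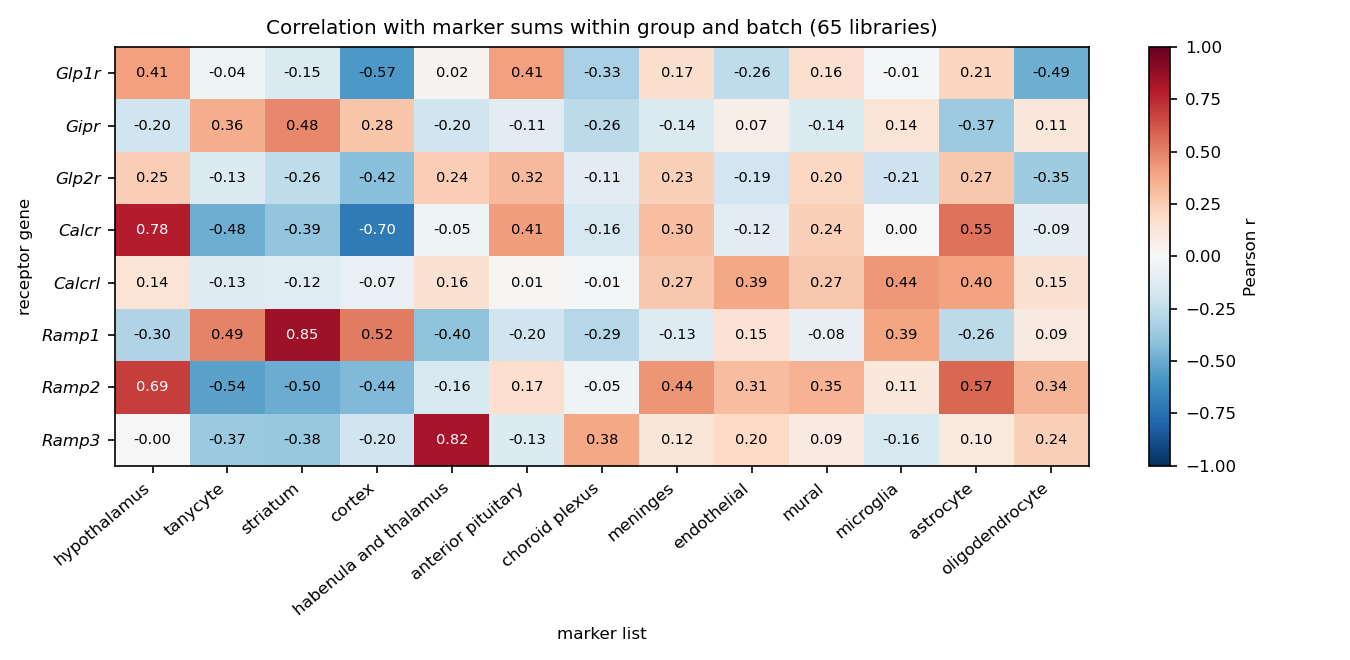
Pearson r (colour and printed value) of each of the 8 genes (rows) with the summed level of each of 13 marker lists (columns), over 65 libraries after the mean of each group in its batch was taken off. Ramp1 with striatum (0.85), Ramp3 with habenula and thalamus (0.82) and Calcr with hypothalamus (0.78) are the highest values.

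Among the 28 pairs of members, 7 had a Benjamini-Hochberg adjusted p under 0.05 for Pearson's r by permutation (100000 resamples, two-sided). No share over all pairs of genes was computed, so the count cannot be read as a trait of these genes. The resamples shuffled values freely after 12 means of group and batch had been taken off, which makes the p-values somewhat too small. Calcr and Glp1r varied together (r = 0.53, adjusted p = 0.00028, rho = 0.42, adjusted p = 0.00686). So did Calcr and its partner family member Ramp2 (r = 0.52, adjusted p = 0.00028, rho = 0.37, adjusted p = 0.0245). Gipr and Ramp1 also did (r = 0.49, adjusted p = 0.00084, rho = 0.52, adjusted p = 0.00084), with r = 0.24 in batch A and 0.77 in batch B. With the 6 striatal markers, the list that Ramp1 went with, Gipr had r = 0.48 (0.16 in batch A and 0.75 in batch B). Ramp1 and Ramp3 varied in opposite directions (r = -0.39, adjusted p = 0.00795, rho = -0.34, adjusted p = 0.0284), and so did Ramp1 and Glp2r (r = -0.39, adjusted p = 0.00795). Within batch A 0 and within batch B 4 of the 28 pairs passed, and 1 passed without the 12 libraries low in hypothalamic markers, Ramp1 and Ramp3 (r = -0.58). For Calcr and Ramp2 r was then 0.23, for Calcr and Glp1r 0.36 and for Gipr and Ramp1 0.38. Without the 2 libraries farthest from the median, r was 0.47 for Calcr and Glp1r, 0.43 for Calcr and Ramp2 and 0.49 for Gipr and Ramp1.

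The genes whose values were most like those of a member were named by the highest r on the same scale among up to 17234 genes with a mean of at least 1 CPM. For Calcr they were Gal, the precursor of the neuropeptide galanin and 1 of the 16 hypothalamic markers (r = 0.93), RGD1311744 (0.92) and Gabrq, a GABA-A receptor subunit (0.91). For Ramp1 they were Tbc1d10c (0.90), Cbr3 (0.88) and LOC100360828 (0.88), and for Ramp3 Shox2, a homeobox transcription factor (0.88), Lef1, which is 1 of the 8 habenular and thalamic markers (0.81), and Plekhg1 (0.79). For Ramp2 they were Vegfb, a vascular endothelial growth factor (0.85), Tnfaip8 (0.82) and Nenf (0.81), and for Calcrl Aldh6a1 (0.80), Yes1 (0.77) and Prrg1 (0.76). The likeness of Calcrl and Prrg1 was 0.88 within batch A but 0.32 within batch B. Glp1r was most like Gmip (0.75), Igsf9 (0.74) and the sodium channel gene Scn9a (0.74), Gipr like Gpt (0.72), Slc26a10 (0.68) and Fcho1 (0.68), and Glp2r like LOC100360218 (0.60), Gch1 (0.60) and Lhx1 (0.59).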

How the data were processed

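RNA of 65 rat hypothalami was sequenced as poly-A-selected, stranded single-end libraries. The authors trimmed reads with cutadapt, aligned them to Rnor_6.0 with STAR 2.7.2b and counted them per RefSeq gene by strand with featureCounts (Subread 1.6.4), splitting reads that hit several loci or genes. This makes the deposited numbers estimated counts, and 30.3% of those above 0 were not whole. Here counts were rounded, genes with low counts removed (filterByExpr, minimum count 10, minimum total 15) and 21871 genes fitted with edgeR 4.0.16 (quasi-likelihood test, robust, TMM, terms for group and batch, R 4.3.3), with Benjamini-Hochberg adjustment over all of them. Batch differences of a comparison came from a fit of group by batch (22207 genes). DESeq2 1.42.0 was an alternative. The edgeR step was tested on simulated data. Within each of the 8 groups, no pair of libraries was alike within sampling noise, and pairs across groups were not compared. Libraries with the same replicate number deviated together in all 5 pairs only for liraglutide and saline (r from 0.321 to 0.611). An alternative added the replicate number as a block for all 8 groups, and not only for this pair of groups. In groups run in both batches the higher numbers were in batch B, so this block was partly tied to batch. Named genes were all 8 members, pathway genes with an adjusted p under 0.05 in 1 of the 8 comparisons (0 genes) and, per member, the 3 genes with the highest r. Calcb and Adm were named outside this rule. Members and lists were chosen with earlier results of these data known. Each library is 1 animal, and intervals on counts cover counting error only.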

Additional observations from a re-analysis of the deposited data

Results flagged for a closer look

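Dixon's test was run on 48 sets of 4 to 10 animals (each group of that size and each member), with both batches of a group pooled. In 11 of them a highest or lowest animal stood apart from the rest. Chance flags about 1 in 20 sets of normally distributed values, but these were unlogged CPM and the sets shared libraries, so more can be expected. The RYGB and sham groups were too large for the limits used, which leaves out Ramp3 in sham replicate 1. For the RAMPs, Ramp1 was 160 CPM in BWM replicate 1 (next 48.0 CPM) and 112 CPM in saline replicate 8 (next 39.2 CPM), and the striatal marker sums of these libraries were 4072 and 1930 CPM. Ramp2 was 19.9 CPM in PYY3-36 replicate 2 (next 44.9 CPM), 60.7 CPM in PYY3-36 + liraglutide replicate 10 (next 46.3 CPM) and 52.2 CPM in lean replicate 6 (next 35.0 CPM). Ramp3 was 17.8 CPM in PYY3-36 + liraglutide replicate 10 (next 11.3 CPM) and 15.2 CPM in lean replicate 2 (next 7.87 CPM).

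Among the gut hormone receptors, Glp1r was 0.539 CPM in lean replicate 2 (next 2.28 CPM) and Gipr was 18.2 CPM in BWM replicate 6 (next 9.21 CPM). Glp2r was 0.293 CPM in liraglutide replicate 5 (next 0.0481 CPM) and 0.321 CPM in lean replicate 1 (next 0.103 CPM), both resting on few counts. PYY3-36 replicate 2, lean replicate 2 and BWM replicate 1 were among the 12 libraries low in hypothalamic markers, whose part in these values was not tested.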

How the results depend on the processing

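For RYGB vs. sham the count of regulated members (adjusted p under 0.05 and absolute log2 fold change over 1) was 0. It was 2 without the batch term (Ramp1 and Glp2r, where 5.43% of all genes were called), 1 with only the compared groups in the fit (Glp2r, 2.59%), 1 in batch A alone (Ramp3, 1.35%) and 0 to 1 when 1 library was left out (0 to 2 by adjusted p alone). With sham in place of saline it was 1 for PYY3-36 + liraglutide (Ramp3, -1.32, where 2.27% were called), and by adjusted p with DESeq2 1 for the batch difference of sham vs. saline (0.305%). Batch B vs. batch A went from 2 members to 0 with the replicate block (12.8% of all genes), and the block gave 0 members in each of the 8 comparisons. Of 28 pairs, 7 passed, against 0 in batch A and 4 in batch B, with no share over all gene pairs computed. Without the 12 libraries low in hypothalamic markers, an alternative chosen after seeing the data, 1 passed. The direction of Ramp1 in RYGB vs. sham turned to 0.0704 with saline as control, that of Glp1r to -0.0886 with the replicate block and that of Ramp3 to 0.74 in batch B alone. Glp1r for liraglutide was 0.47 with sham, 0.50 with the replicate block, 0.93 in batch B and -0.27 to 0.21 with 1 library left out, for PYY3-36 -0.0594 without the batch term, -0.0667 with only the compared groups and -0.54 to 0.49, and for both 0.40 with sham, 0.79 in batch B and -0.31 to 0.19. Ramp3 with 1 library left out ran from -0.97 to 0.41 (RYGB), -1.36 to 0.27 (BWM) and -1.46 to 0.17 (lean), all vs. sham. The cause was not tested. Of 299 other counts of members, 296 were 0 as in the reported fit, which shows no stability. Glp2r, at most 32 counts, is limited by depth.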
